A study of Macaca fascicularis and Mus musculus with 492 samples.

Results

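The oocyte-type genes of the NLRP and KHDC families described here were followed through cynomolgus monkey embryos and embryonic stem cells (ESCs). They were NLRP2, NLRP7, NLRP9, KHDC3L, OOEP and KHDC1L, the last listed as LOC102137091 in the deposited table. They are 6 of the 28797 monkey genes with values, and each had a row. They were selected on measured values of these same cells, namely on lower levels in late than in early epiblast-like cells or in ESCs than in late epiblast-like cells. For the 6 genes those contrasts are therefore given as a description with no test. Tests of the 6 genes are given for trophectoderm-like, hypoblast-like and other cells, which entered neither contrast but come from the same embryonic days. The 3 cultures of monkey ESCs were the line CMK6 without feeders (9 cells), CMK6 on mouse embryonic feeders (14 cells) and the line CMK9 on feeders (8 cells), and the feeder medium held mouse LIF and bFGF. The 390 monkey embryo cells came from 8 embryonic days, before implantation (43 cells of E06, 35 of E07, 95 of E08 and 20 of E09) and after it (46 cells of E13, 62 of E14, 36 of E16 and 53 of E17). The labels state no genetic change or treatment of the embryos. Whole embryos were dissociated before implantation, and after implantation the fragment with the epiblast, amnion, hypoblast and yolk sac was cut from the uterus. The series also holds 71 mouse cells, namely 12 epiblast-like cells (EpiLCs) induced in culture, 25 embryo cells at E5.5, 24 at E6.5, and 10 ESCs in 2i and LIF.

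NLRP proteins are cytoplasmic NOD-like receptors with a pyrin domain. Several of them assemble inflammasomes in immune cells, while others, among them NLRP2, NLRP5, NLRP7 and NLRP9, are known from oocytes and early embryos. KHDC3L, OOEP, KHDC1L and DPPA5 belong to a mammalian gene family with a divergent KH domain, a fold that binds RNA in other proteins. In the mouse, OOEP, the KHDC3L counterpart, NLRP5 and TLE6 form the subcortical maternal complex of the egg, which embryos need for the first divisions. In humans, loss of NLRP7 or KHDC3L in the mother is known as a cause of recurrent molar pregnancy, in which maternal imprints are missing, and NLRP2 has been tied to imprinting defects in offspring. In the RefSeq assembly T2T-MFA8v1.1, used here for neighbour order only, NLRP7 lies next to NLRP2, and OOEP, KHDC3L, DPPA5, KHDC1 and KHDC1L follow one another. No label or header says how reads shared by related genes were handled, so the values of these families are uncertain in that respect.

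RNA of each cell was measured by SC3-seq, a method that reads the 3-prime ends of the amplified cDNA of 1 cell, and values are in RPM, the reads of a gene scaled to the total of its cell. Monkey cells had an estimated 166742 to 4491534 reads (median 1879343), and the day medians lay between 912192 reads at E17 and 2049966 reads at E09. The labels give no lineage, so the embryo cells were clustered without the 6 genes and named from markers. Of 12 clusters, 10 were named. The 3 epiblast-like clusters each had 6 of 8 epiblast markers elevated, and the hypoblast-like cluster had 10 of 10 hypoblast markers. A cluster of 31 cells of E06 and 1 cell of E07 stayed unnamed with 3 of 8 epiblast markers elevated, as did a cluster of 4 cells of E13 and 13 of E14 with 4 of 8 epiblast and 4 of 9 gastrulating markers. Cells of a day are not replicates, and the labels name no embryos, so the mean of log2(RPM + 1) over the cells of a class and day, or of a culture, was the unit. P-values therefore rest on how days or cultures vary and say nothing of animals.

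The 6 genes fell into 2 patterns on the blastocyst days. NLRP2, NLRP7 and KHDC1L were at high levels in every early class, while KHDC3L, NLRP9 and OOEP had their highest means in epiblast-like cells. All 6 were at or near 0 in the ESC cultures. The plot of unit means shows these levels for 24 units of at least 5 cells.

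**Figure D1:**
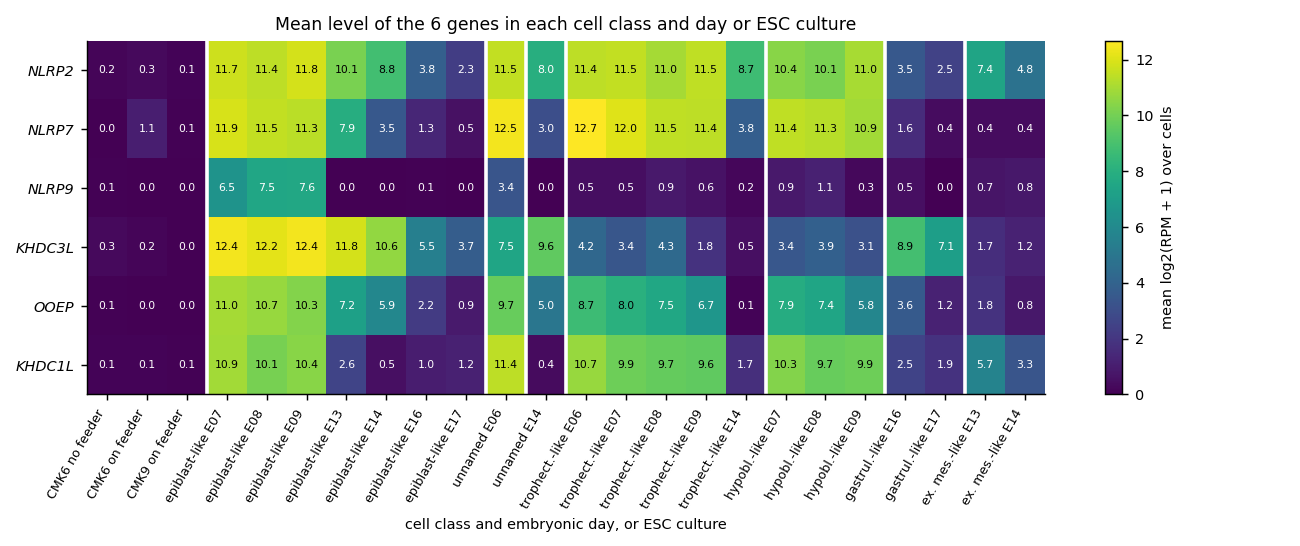
Mean log2(RPM + 1) over cells (colour and printed value) of each gene (rows) in each ESC culture or cell class and embryonic day with at least 5 cells (columns; white lines separate classes). NLRP2, NLRP7 and KHDC1L exceed 9.5 in every early class, KHDC3L exceeds 12 in early epiblast-like cells only, and no ESC mean exceeds 1.06.

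KHDC3L, the KH-domain gene next to OOEP, separated epiblast-like from the other early cells most widely. At E08 its levels in the 24 epiblast-like cells were 2322 RPM at the lowest, 4763 at the median and 7477 at the highest. The 34 trophectoderm-like cells of that day had 1.12, 19.8 and 366 RPM, and the 37 hypoblast-like cells had 0.411, 11.2 and 279 RPM. No epiblast-like cell of E07, E08 or E09 had less than 2322 RPM, and no other named cell of those days had more than 500.5 RPM, so the cells did not overlap. The mean difference in log2(RPM + 1) was 9.17 ± 1.37 between epiblast-like and trophectoderm-like cells and 8.86 ± 0.53 between epiblast-like and hypoblast-like cells (SD over 3 days).

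NLRP9, an NLRP gene known from oocytes, followed the same division at a lower level. At E08 the epiblast-like cells had 75.96, 194 and 292 RPM at the lowest, median and highest, the trophectoderm-like cells 0, 0.487 and 85.6 RPM, and the hypoblast-like cells 0, 0.414 and 88.3 RPM. Most trophectoderm-like and hypoblast-like cells were near 0, but the highest of each overlapped the lowest epiblast-like cells. The difference in log2(RPM + 1) was 6.55 ± 0.45 against trophectoderm-like and 6.43 ± 0.83 against hypoblast-like cells (SD over 3 days).

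OOEP, a subunit of the maternal complex, was present in all 3 classes at different levels. At E08 its lowest, median and highest values were 816, 1676 and 2753 RPM in epiblast-like cells, 89.1, 183 and 348 RPM in trophectoderm-like cells, and 72.98, 179 and 434 RPM in hypoblast-like cells. The epiblast-like cells lay wholly above the others on that day. Over E07 to E09 the difference was 3.26 ± 0.37 against trophectoderm-like and 3.64 ± 0.78 against hypoblast-like cells (SD, n = 3 days).

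NLRP2, NLRP7 and KHDC1L differed far less between the classes. At E08, NLRP2 had medians of 2631 RPM in epiblast-like, 2158 in trophectoderm-like and 1069 in hypoblast-like cells. NLRP7 had medians of 2776, 2990 and 2563 RPM in the same order, and KHDC1L 1183, 861 and 742 RPM. The ranges over cells overlapped for all of them. The early epiblast-like cells took part in the selection of the genes, so no test is given for these differences.

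**Figure D2:**
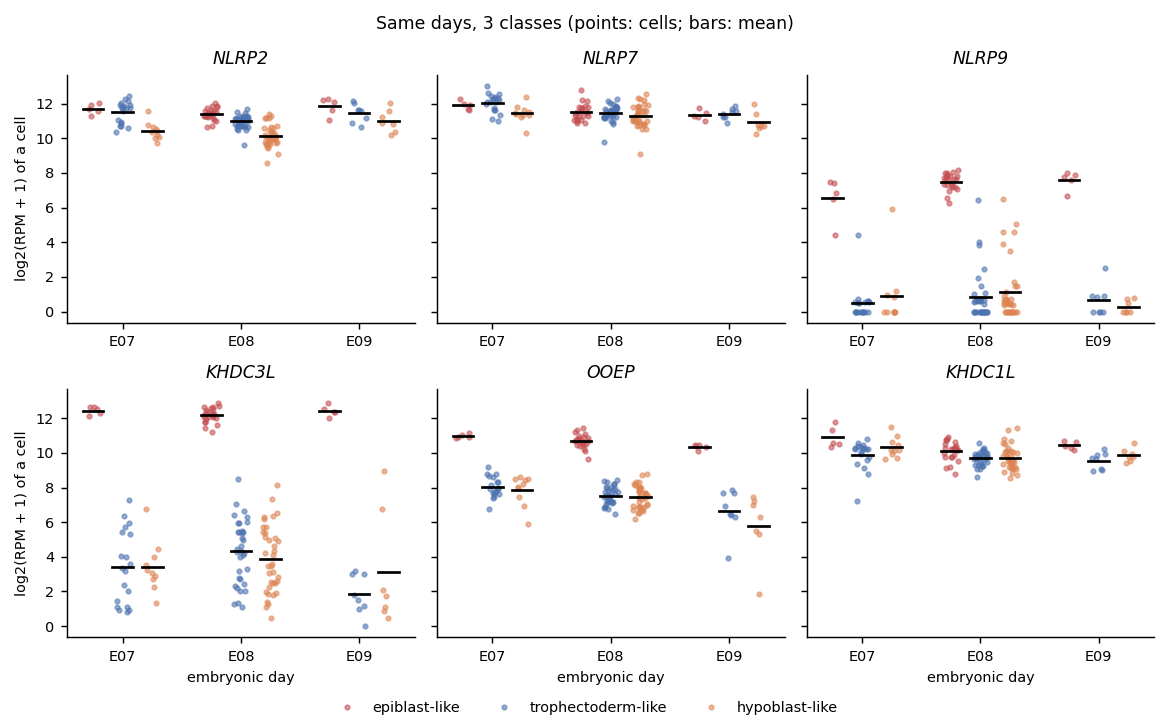
Level of each gene in single cells (points, log2(RPM + 1)) of the epiblast-like, trophectoderm-like and hypoblast-like classes on E07, E08 and E09; black bars are means over cells. Epiblast-like cells of a day do not overlap its other cells for KHDC3L and OOEP, the lowest of them overlap the highest of the others for NLRP9, and the 3 classes overlap widely for NLRP2, NLRP7 and KHDC1L.

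Trophectoderm-like and hypoblast-like cells entered neither contrast used to select the genes and were compared by test. NLRP2 was higher in trophectoderm-like cells, with medians of 3453, 2158 and 3097 RPM on E07, E08 and E09, against 1331, 1069 and 1920 RPM in hypoblast-like cells. The difference was 0.79 ± 0.14 (log2, SE; adjusted p = 0.00397 by limma with day as a block, n = 3 days), and it was positive on all 3 days. NLRP7 differed by 0.42 ± 0.13 in the same direction (adjusted p = 0.0465), a call lost under 9 of 12 alternatives, with adjusted p between 0.0435 and 0.397 over all of them. With quantile normalization the NLRP7 difference was 0.18. In this comparison 10.2% of the 9451 tested genes were higher and 11.7% lower in trophectoderm-like cells, so 2 of the 5 tested genes being higher is set against a background of 10.2%.

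The other 3 tested genes did not pass the threshold between those classes. The difference was 0.38 ± 0.19 for OOEP (adjusted p = 0.195), -0.26 ± 0.13 for KHDC1L (adjusted p = 0.205, but 0.0417 with quantile normalization) and -0.30 ± 0.41 for KHDC3L (adjusted p = 0.644; limma). KHDC3L changed sign to 0.20 without E09. NLRP9 was too low to be tested in these classes.

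At E06 the 31 cells of the unnamed cluster had high levels of the genes shared by all early classes. NLRP7 ranged over 2207, 5513 and 12058 RPM at the lowest, median and highest cell, NLRP2 over 1853, 3126 and 4275 RPM, and KHDC1L over 1727, 2569 and 5798 RPM. The epiblast-associated genes were spread widely among these cells. KHDC3L ranged from 1.5 to 2835 RPM (median 190) and NLRP9 from 0 to 177 RPM (median 18.6), while OOEP ranged from 332 to 1944 RPM (median 991).

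Cells of E06 with more KHDC3L also had more NLRP9. The Pearson r of the 2 genes over the 31 cells was 0.79, and that of KHDC3L with OOEP was 0.71, both on log2(RPM + 1). These cells shared a day, and their titles carry 2 codes whose meaning is not given. The 19 cells coded MS03 had mean log2(RPM + 1) of 8.34 for KHDC3L and 4.40 for NLRP9, against 6.06 and 1.70 in the 12 cells coded MS68, and the part of the code in the correlation was not tested. Trophectoderm-like cells of the same day had KHDC3L between 1.89 and 62.8 RPM, below the median of the unnamed cells.

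Within trophectoderm-like cells, a trend was fitted over the days E06 to E09. The cells of E06 lay in 1 cluster, those of E08 and E09 in another and those of E07 in both, so the trend also runs from the first cluster to the second. OOEP had medians of 410, 240, 183 and 104 RPM on E06, E07, E08 and E09. Its trend was -0.66 ± 0.10 per day (log2, SE; adjusted p = 0.0421 by limma over 4 days), a call lost under 7 of 11 alternatives. It was the only one of 5 tested genes called, and 0.204% of 8819 tested genes were lower and 0.272% higher by this rule. NLRP7 had medians of 6691, 4408, 2990 and 2834 RPM, with a trend of -0.43 ± 0.10 per day that did not pass (adjusted p = 0.0928). KHDC1L gave -0.37 ± 0.10 (adjusted p = 0.147), KHDC3L -0.63 ± 0.28 (adjusted p = 0.325) and NLRP2 -0.04 ± 0.11 (adjusted p = 0.892). NLRP7 and KHDC1L passed without E08 and without E09, KHDC3L passed without E08, where its trend was -0.80, and without E09 the KHDC3L trend was 0.04. This fit rests on 4 days, and it called 42 genes over the whole table, with between 1 and 829 when a single day was left out.

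In epiblast-like cells the 6 genes were low from different days on. These levels were used for the selection and are given as a description. The class was made of 3 clusters that coincide with periods, 1 for E07 to E09, 1 for E13 and E14 and 1 for E16 and E17, so day and cluster cannot be told apart. NLRP9 and KHDC1L were the earliest to be near 0, NLRP7 and OOEP were intermediate, and NLRP2 and KHDC3L were still at high levels at E14.

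NLRP9 had 20.3, 115 and 179 RPM at the lowest, median and highest of 5 epiblast-like cells at E07, 75.96, 194 and 292 RPM in 24 cells of E08, and 100.02, 218 and 255 RPM at the lowest, median and highest of 5 cells of E09. No read was seen in 24 cells at E13, 25 at E14 or 35 at E17, which allows shares of cells with a read of up to 12.5%, 12% and 8.57%. At E16 2 of 22 cells had a read, the highest at 0.586 RPM. Early and late cells did not overlap.

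KHDC1L had medians of 1506, 1183 and 1377 RPM in epiblast-like cells at E07, E08 and E09, with no cell below 433 RPM. The medians were 6.62, 0.348, 0.538 and 0 RPM at E13, E14, E16 and E17. Single late cells stayed high: 1 of 24 cells exceeded 100 RPM at E13, none of 25 at E14, 1 of 22 at E16 with 465 RPM, and 2 of 35 at E17 with a highest value of 473 RPM. Apart from such cells, the late levels lay below every early cell.

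NLRP7 had medians of 3939, 2776 and 2459 RPM at E07, E08 and E09 and 216, 16.3, 0.927 and 0 RPM at E13, E14, E16 and E17. All 24 cells of E13 lay between 78.5 and 652 RPM, below the lowest early cell at 1859 RPM. By E14 only 1 of 25 cells exceeded 100 RPM. Reads were present in 88% of cells at E14, 72.7% at E16 and 34.3% at E17, and with each cell thinned to 300000 reads in 72%, 18.2% and 22.9%. Median depth differed between these days, so the thinned shares are the comparable ones.

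OOEP had medians of 1971, 1676 and 1342 RPM at E07, E08 and E09 and 159, 125, 0.732 and 0 RPM at E13, E14, E16 and E17. Its cells at E14 were split by the code in the cell titles. The 9 cells coded MS08 had a mean log2(RPM + 1) of 8.16 and the 4 coded MS10 had 8.02, while the 12 coded MS61 had 3.42. At E13 the 2 larger codes differed little, with 7.18 in 13 cells of MS10 and 7.33 in 10 cells of MS61.

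NLRP2 had medians of 3323, 2631 and 4365 RPM at E07, E08 and E09 and 1206, 544, 20.5 and 3.22 RPM at E13, E14, E16 and E17. Every cell of E13 and 24 of 25 cells of E14 were above 100 RPM, against 4 of 22 at E16 and none of 35 at E17. KHDC3L, its median 5958, 4763 and 5329 RPM on the early days, was at 3751 RPM at E13, 1881 RPM at E14, 38.2 RPM at E16 and 9.86 RPM at E17. At E13 the cells of KHDC3L, between 1386 and 8411 RPM, overlapped the early cells. A read of KHDC3L was found in every late epiblast-like cell, and after thinning in 81.8% of cells at E16 and 85.7% at E17.

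KHDC3L and NLRP2 were more uneven among epiblast-like cells of E16 than on the other days. KHDC3L ran from 0.885 to 4204 RPM over 22 epiblast-like cells of that day, NLRP2 from 0 to 203 RPM and OOEP from 0 to 198 RPM. The SD over cells of log2(RPM + 1) for KHDC3L was 2.997 at E16, against 0.62 at E13, 0.94 at E14 and 2.31 at E17. The order of days was also seen within a single title code: of cells coded MS08, 2 epiblast-like cells of E07 had KHDC1L at 1463 and 1506 RPM, 9 of E14 had at most 1.79 RPM and 16 of E16 at most 3.54 RPM.

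Set as late against early day means, NLRP7 was 3.33 ± 3.31 over E13, E14, E16 and E17, against 11.58 ± 0.29 over E07, E08 and E09 (log2(RPM + 1), SD over days). KHDC1L was 1.32 ± 0.89, against 10.48 ± 0.41, and NLRP9 0.01 ± 0.03, against 7.20 ± 0.58. OOEP was 4.04 ± 2.98, against 10.68 ± 0.32, NLRP2 6.28 ± 3.80, against 11.65 ± 0.23, and KHDC3L 7.91 ± 3.92, against 12.35 ± 0.15. The spread between late days was larger than that between early days for all but NLRP9.

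**Figure D3:**
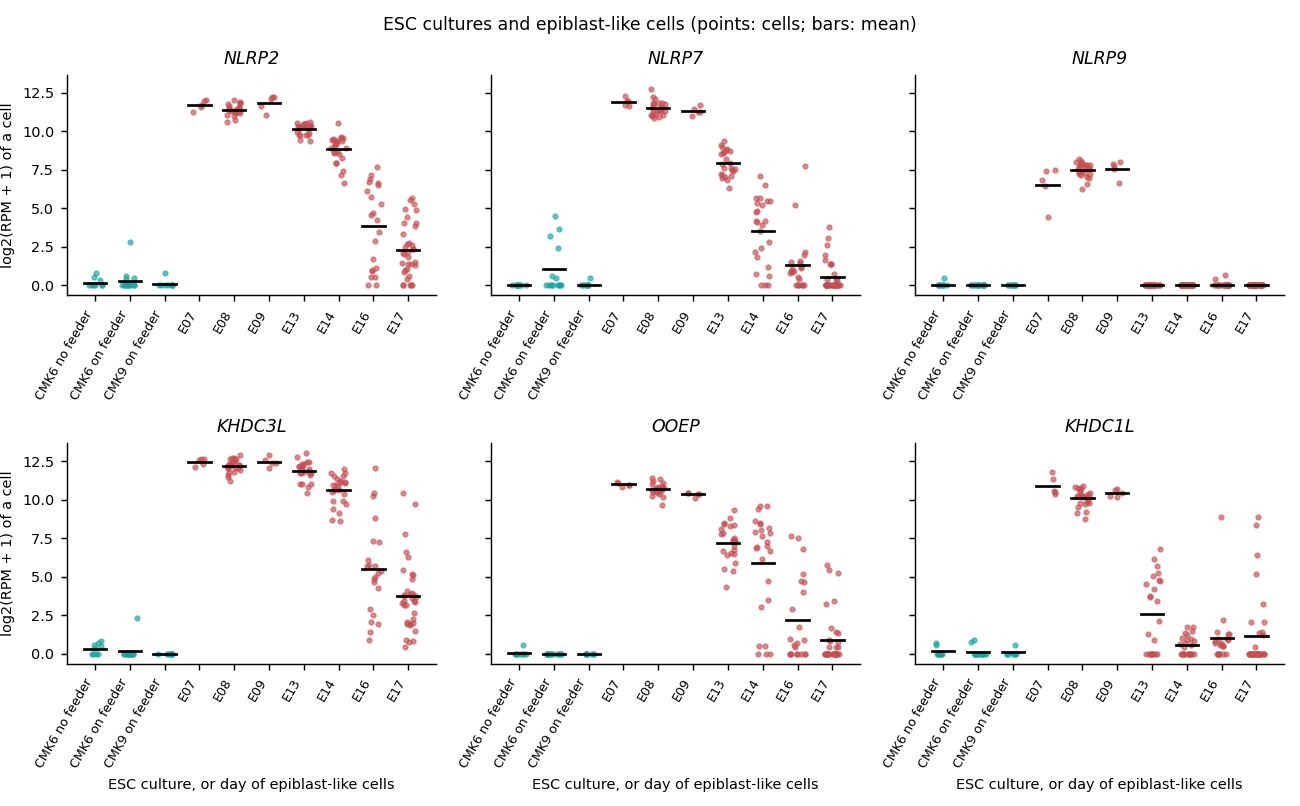
Level of each gene in single cells (points, log2(RPM + 1)) of the 3 ESC cultures and of epiblast-like cells by embryonic day; black bars are means over cells. ESCs are at or near 0 for all 6 genes. NLRP9 is at or near 0 from E13, and KHDC1L is near 0 from E14 in most cells. Most cells are above 100 RPM of KHDC3L and NLRP2 at E14 and below it at E16.

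In the ESC cultures the 6 genes were at or near 0, which is also a description, since the selection used these cells. The highest mean log2(RPM + 1) of a culture was 0.31 for NLRP2, 0.05 for NLRP9, 0.32 for KHDC3L, 0.06 for OOEP and 0.14 for KHDC1L. NLRP7 reached 1.06 in CMK6 on feeders, where 6 of 14 cells had a read and the highest cell had 21.9 RPM, against 0.06 in CMK9 on feeders and 0 in CMK6 without feeders. The lowest late epiblast-like day, E17, had means of 2.302 for NLRP2, 3.73 for KHDC3L and 0.89 for OOEP. For NLRP7, NLRP9 and KHDC1L the ESC means overlapped those of late epiblast-like days or lay next to them. The ESC cultures were sequenced at least as deeply as any embryonic day, with culture medians of 2169463 to 2470469 reads per cell.

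Cells of named classes other than epiblast-like gave a test of the same time step in cells that the selection had not used. Day means over these cells were compared between E13, E14, E16 and E17 and E06, E07, E08 and E09 with limma. NLRP7 averaged 1.32 ± 0.68 on late days and 11.77 ± 0.66 on early days (log2(RPM + 1), SD, n = 4 days each). KHDC1L fell to 3.44 ± 1.89 on late days, against 10.05 ± 0.48 on early days (difference -6.61 ± 0.73 SE, adjusted p = 0.000115 by limma). NLRP2 fell to 5.29 ± 2.25, against 11.09 ± 0.39 (difference -5.80 ± 0.85, adjusted p = 0.000593 by limma). OOEP averaged 1.82 ± 0.96 on late days, against 7.61 ± 1.02 on early ones. Late day means at E13, E14, E16 and E17 were 1.32, 2.02, 1.53 and 0.40 for NLRP7 and 2.42, 0.81, 2.83 and 1.21 for OOEP. Fewer than 3 of these per gene were at 2 or higher. NLRP7 and OOEP thus reached the level needed for a test through the early days alone, so no test is given for them.

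KHDC3L did not pass in that comparison, with 4.16 ± 3.34 on late days and 3.55 ± 0.82 on early days (difference 0.61 ± 1.29, adjusted p = 0.742 by limma). Its late day means were 1.64, 0.91, 6.96 and 7.12 at E13, E14, E16 and E17, so the later pair stood above and the earlier pair below the early days. Without gastrulating-like cells, an alternative chosen after seeing the data that leaves E13 and E14 as late days, the difference was -2.24 (adjusted p = 0.0177). NLRP9 was too low to be tested. Thus KHDC1L and NLRP2 were called lower and KHDC3L was not, where 24.1% of 9967 tested genes were lower and 11% higher. The median of all tested genes was itself shifted by -0.32, and the calls of KHDC1L and NLRP2 held under all 17 alternatives. The filter on low values is passed more easily by genes high on 1 side. The calls of KHDC1L and NLRP2 held with no filter as well (adjusted p of at most 0.01003 by limma). The classes that make up a day differ, since early days held trophectoderm-like and hypoblast-like cells and late days mostly extraembryonic mesenchyme-like and gastrulating-like cells, and time and class cannot be told apart here.

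**Figure D4:**
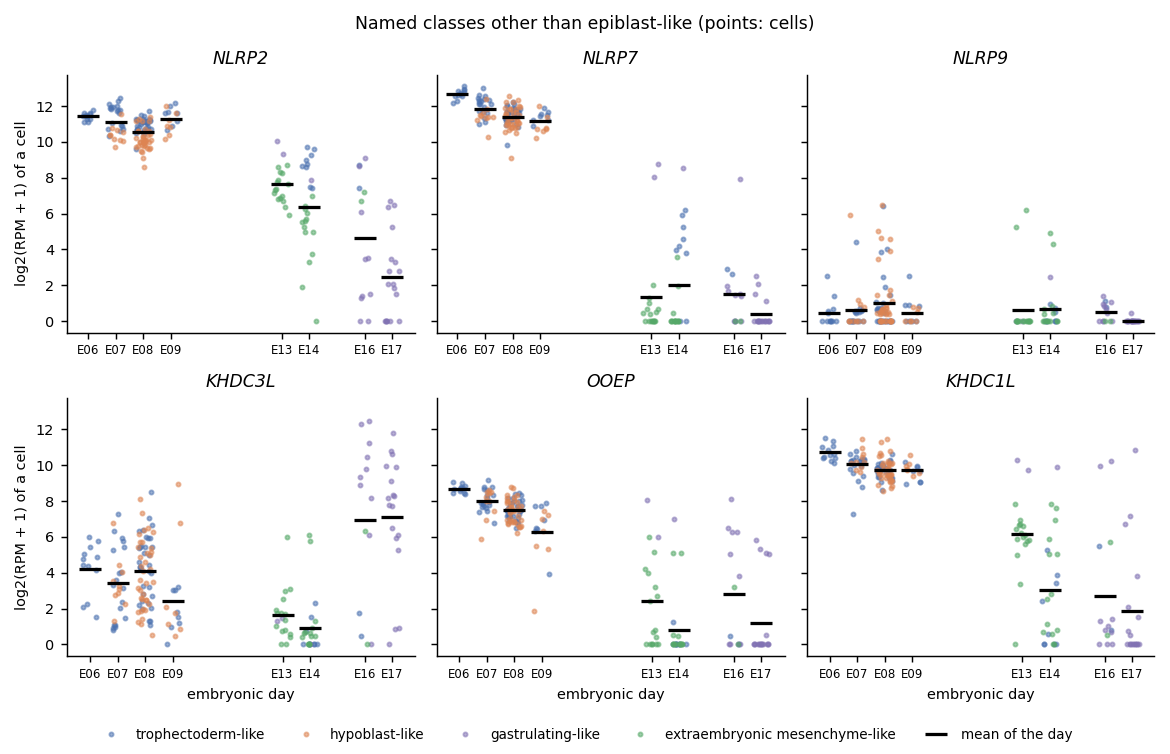
Level of each gene in single cells (points, log2(RPM + 1), coloured by class) of the named classes other than epiblast-like, by embryonic day; black bars are the mean over these cells of a day. Late days lie below early days for NLRP2, NLRP7, OOEP and KHDC1L, and for KHDC3L 19 of the 28 gastrulating-like cells of E16 and E17 exceed 100 RPM while others are as low as 0.

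The late classes differed in which of the genes they had. Trophectoderm-like cells of E14 (9 cells) had NLRP2, with 173, 441 and 850 RPM at the lowest, median and highest, and had at most 71.3 RPM of NLRP7, 38.04 RPM of KHDC1L, 4.04 RPM of KHDC3L, 1.41 RPM of OOEP and 0.921 RPM of NLRP9. Trophectoderm-like cells of E06 to E09 had no cell under 776 RPM of NLRP2, so that the highest cells of E14 reached the lowest early ones, and none under 892 RPM of NLRP7, so that there was no overlap. Extraembryonic mesenchyme-like cells had NLRP2 and KHDC1L but hardly any NLRP7. At E13 the 16 cells had a median of 163 RPM of NLRP2 and 65.7 RPM of KHDC1L, and at most 2.96 RPM of NLRP7. Markers of the maternal decidua and uterus were also found in these cells, with medians of their summed level of 43.99 RPM at E13 and 37.8 RPM at E14 and 1 of the 4 at 0 in every cell, against medians of 0 in the other named classes and the ESCs, and their part in these values was not tested. At E14 the medians of 14 cells were 40.99 RPM of NLRP2 and 5.33 RPM of KHDC1L.

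Gastrulating-like cells had the highest KHDC3L of the named late classes other than epiblast-like. KHDC3L ranged over 0, 761 and 5702 RPM at the lowest, median and highest of 10 cells at E16, and over 0, 254 and 3537 RPM in 18 cells at E17. Epiblast-like cells of the same days had medians of 38.2 and 9.86 RPM, and the unnamed cluster of E13 and E14 had medians of 929 RPM in 4 cells and 768 RPM in 13. The mean difference was not tested, as gastrulating-like and epiblast-like cells shared only these 2 days. The other members were low in most of these cells, with medians of 6.00 and 3.16 RPM of NLRP2, 1.66 and 0 RPM of NLRP7 and 22.5 and 0 RPM of OOEP at E16 and E17.

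KHDC3L and KHDC1L were seldom high in the same gastrulating-like cell. Of the 28 such cells of E16 and E17, 19 had over 100 RPM of KHDC3L alone, 5 had over 100 RPM of KHDC1L alone, none had both and 4 had neither, with 100 RPM set after the values were seen. The 3 cells of E17 coded MS13 had 106, 142 and 1866 RPM of KHDC1L and at most 0.868 RPM of KHDC3L. The 3 cells of this class from E13 and E14 had 853, 1267 and 943 RPM of KHDC1L, 259, 432 and 365 RPM of NLRP7 and at most 1.83 RPM of KHDC3L. Those 6 cells had 1 to 6 of 9 gastrulating markers above 10 RPM, with summed levels between 132 and 3009 RPM, against class medians of 2553 RPM at E16 and 2926 RPM at E17. They also had 4 to 9 of 10 hypoblast and endoderm markers, 2 to 7 of 10 trophectoderm markers and 0 to 8 of 9 extraembryonic mesenchyme markers above 10 RPM. The cell with 8 mesenchyme markers, of E17, had 9112 RPM of them in sum. The cluster as a whole had 7 of 9 gastrulating and 5 of 10 hypoblast and endoderm markers elevated.

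**Figure D5:**
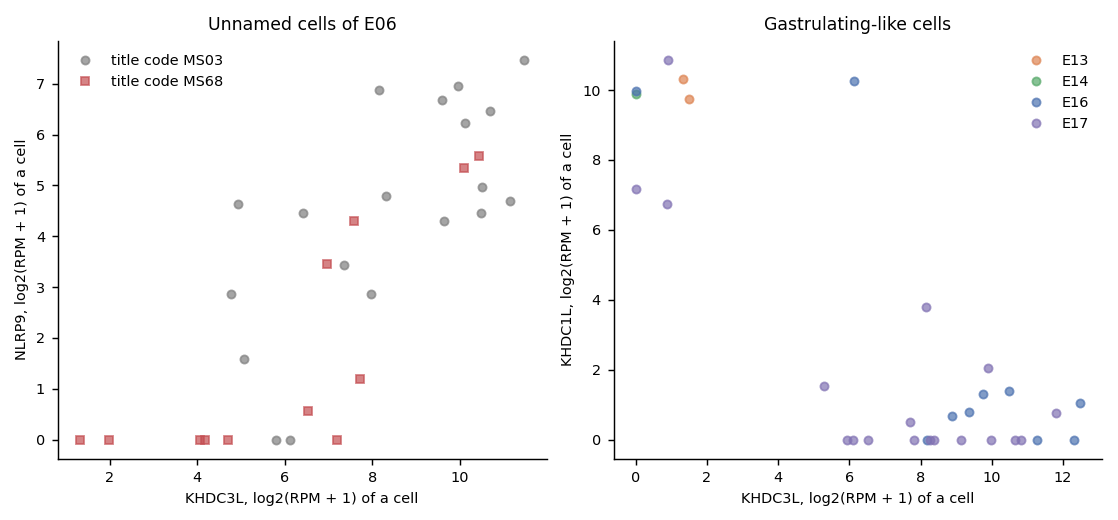
Left, NLRP9 against KHDC3L in the 31 unnamed cells of E06, by the code in the cell titles. Right, KHDC1L against KHDC3L in the gastrulating-like cells, by embryonic day; both axes are log2(RPM + 1) of a cell. NLRP9 is higher where KHDC3L is higher at E06 (r = 0.79), and no gastrulating-like cell of E16 or E17 exceeds 100 RPM of both KHDC1L and KHDC3L.

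Partners of these genes in the egg were low or near 0 in the embryo units. Of the 4 maternal complex partners listed, NLRP5, the pyrin-domain scaffold of the complex in the mouse, had no unit mean above 0.17 and PADI6, an egg lattice protein, none above 0.19 (log2(RPM + 1)). TLE6 was low, with its highest mean of 3.32 in epiblast-like cells of E08. TLE6 averaged 0.68 ± 0.74 on late epiblast-like days, against 2.65 ± 0.63 on early ones (SD over days), and it reached the level needed for a test through the early days alone, so no test is given. ZBED3 had unit means of at most 2.57 in the embryo and of 2.40, 3.89 and 4.08 in CMK6 without feeders, CMK6 on feeders and CMK9 on feeders. The oocyte-type genes NLRP4, NLRP8, NLRP11, NLRP13 and NLRP14 had unit means of at most 0.36. Markers of oocytes and cumulus cells were close to 0 throughout, with medians of their summed level between 0 and 4.89 RPM over the 24 units and 1 to 7 of the 8 markers without a read in every cell of a unit. The highest summed level in a cell was 148 RPM.

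DPPA5, the KH-domain neighbour of KHDC3L and a pluripotency marker, had unit means much like those of KHDC3L. Its means in epiblast-like cells were 11.23, 11.18, 11.14, 10.91, 10.54, 7.17 and 6.27 at E07, E08, E09, E13, E14, E16 and E17. It was lower on late epiblast-like days, with 8.72 ± 2.35, than on early ones, with 11.18 ± 0.05 (difference -2.46 ± 0.88, adjusted p = 0.0441 by limma). In ESCs it averaged 0.22 ± 0.21 over 3 cultures. Against these it reached the level needed for a test through the late epiblast-like days alone, so no test is given. In trophectoderm-like cells the DPPA5 trend over E06 to E09 was -1.13 ± 0.15 per day (adjusted p = 0.0421 by limma). Over all tested genes, late against early epiblast-like days called 13.3% of genes higher and 24.2% lower. ESCs against late epiblast-like days called 7.14% higher and 1.52% lower.

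Some genes known from the cleavage stage had lower means on late days as well. In epiblast-like cells 5 genes of that list were tested, and none was called higher. TRIM60 (-3.02 ± 0.82) and ZNF296 (-1.82 ± 0.49) were lower, in a comparison where 24.2% of all tested genes were lower. The homeobox gene DPRX averaged 0.28 ± 0.27 on late days, against 7.54 ± 0.62 on early ones (SD over days). The Krüppel-like factor KLF17 averaged 0.13 ± 0.13, against 3.13 ± 0.19. Both reached the level needed for a test through the early days alone, so no test is given for them. In the other classes TRIM60 was lower (-3.11 ± 0.44), in a comparison where 24.1% of all tested genes were lower. DPRX averaged 0.61 ± 0.47 on late days there, against 5.39 ± 2.71 on early ones, and ZNF280A 0.45 ± 0.49, against 3.75 ± 0.71. DPRX, ZNF280A and the remaining tested genes of the list reached the level needed through the early days alone, so no test is given for them. In each comparison 5 of the 14 genes with a row were high enough to be tested, and genes pass that filter more easily when high on one side.

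Of the oocyte and egg genes, 27 had a row and 3 were tested. In epiblast-like cells DPPA3, a maternal factor that protects methylation (-5.64 ± 0.97), and the germ cell factor SOHLH2 (-1.99 ± 0.70) were lower on late days. Of all tested genes 24.2% were lower, with a median difference of -0.26, and here too the filter favours genes high on 1 side. The germ cell helicase DDX4 averaged 1.14 ± 0.98 on late days, against 3.72 ± 1.23 on early ones (SD over days). It reached the level needed for a test through the early days alone, so no test is given for it. Markers of germ cells, 6 genes, had medians of their summed level between 18.9 and 35.3 RPM on late epiblast-like days and between 274 and 337 RPM on early ones, with 0 to 2 of them at 0 in every cell, and their part in these values was not tested. DPPA3 was lower in the other classes as well (difference -7.45 ± 0.33), with 1.87 ± 0.56 on late days and 9.32 ± 0.42 on early days (adjusted p = 4.03e-07 by limma). In ESCs DPPA3 averaged 0.55 ± 0.15 over cultures, against 4.27 ± 2.55 on late epiblast-like days. There it reached the level needed for a test through those days alone, so no test is given.

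Genes that maintain imprints were called in both directions. Of the 10 listed, DPPA3 and the zinc finger gene ZNF445 (-1.45 ± 0.39) were lower in late against early epiblast-like days. In that comparison 24.2% of all tested genes were lower and 13.3% higher. DNMT3L, a cofactor of de novo methylation, averaged 3.01 ± 2.97 on late days, against 8.92 ± 0.18 on early ones (SD over days). It reached the level needed for a test through the early days alone, so no test is given for it. The maintenance methyltransferase DNMT1, listed as LOC101866610 (2.36 ± 0.41) and DNMT3A (0.74 ± 0.22) were higher. In the other classes DNMT3A (-1.73 ± 0.34) and DPPA3 were lower on late days, while DNMT1 (3.06 ± 0.31) and UHRF1 (2.04 ± 0.43) were higher. Of all tested genes 24.1% were lower and 11% higher there. ZFP57, a zinc finger protein that guards imprints, averaged 2.00 ± 0.98 on late days, against 4.06 ± 0.54 on early ones. DNMT3L averaged 1.52 ± 1.68, against 9.22 ± 0.40. ZFP57 and DNMT3L reached the level needed for a test through the early days alone, so no test is given for them.

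The inflammasome side of the NLRP family was thinly represented. Only NLRP12 and NLRX1 of 19 other NLRP and NLR genes were high enough to be tested on late against early days. NLRP12, a regulator of inflammation, averaged 1.70 ± 1.05 on late days in epiblast-like cells, against 3.63 ± 0.52 on early ones. In the other classes it averaged 0.70 ± 0.39 on late days, against 3.42 ± 0.41 on early ones. In both comparisons it reached the level needed for a test through the early days alone, so no test is given. NEK7, a kinase that binds NLRP3, was lower in epiblast-like cells (-1.50 ± 0.39) and in the other classes (-1.66 ± 0.52), where 24.1% of all tested genes were lower. The cytokine gene IL18, the other partner tested in epiblast-like cells, did not pass (-0.24 ± 0.50, adjusted p = 0.733 by limma). In the other classes 3 of 10 listed partners were tested. Of these, the pore-forming GSDMD averaged 0.93 ± 0.69 on late days, against 3.04 ± 0.70 on early ones. The cytokine IL1B averaged 0.25 ± 0.26, against 3.53 ± 1.86. Both reached the level needed for a test through the early days alone, so no test is given for them. Of 12 classical KH-domain genes, all tested, the RNA-binding proteins IGF2BP3 (1.02 ± 0.24) and IGF2BP1 (0.74 ± 0.19) were higher on late epiblast-like days. The RNA decay factor KHSRP (-0.95 ± 0.21) was lower, and the list median was 0.09. Of all tested genes 13.3% were higher and 24.2% lower in that comparison.

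In trophectoderm-like against hypoblast-like cells of E07 to E09, 4 cleavage-stage genes were tested (log2 difference ± SE, limma). DPRX (1.61 ± 0.35) and TRIM60 (0.89 ± 0.15) were higher, and ZNF280A was lower (-1.70 ± 0.34). The phosphate transporter SLC34A2 averaged 4.07 ± 0.86 in trophectoderm-like and 0.92 ± 0.73 in hypoblast-like cells (SD over days). It reached the level needed through trophectoderm-like cells alone, so no test is given for it. Over all tested genes 10.2% were higher and 11.7% lower. IL1B averaged 2.83 ± 1.13 in trophectoderm-like and 5.67 ± 2.01 in hypoblast-like cells, and GSDMD 3.97 ± 0.77 and 2.37 ± 0.90. Each reached the level needed through the class with its higher mean alone, so no test is given for them. NEK7 (-1.43 ± 0.26) was lower in trophectoderm-like cells. Of the 12 KH-domain genes, IGF2BP1 was higher (0.54 ± 0.15) and IGF2BP2, FXR1 and KHDRBS1 were lower there. Neither of 2 tested NLR genes passed. In ESCs TRIM60, the only cleavage-stage gene tested against late epiblast-like days, averaged 0.13 ± 0.13 over cultures, against 5.38 ± 2.13 on those days. ZBED3, a maternal complex partner, averaged 3.45 ± 0.92 over cultures, against 1.17 ± 0.57 on those days. Each reached the level needed for a test through 1 side alone, so no test is given for them.

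Each gene was set beside the 11725 genes with a mean of at least 2 in at least 3 of the 24 units, and the 3 with the highest Pearson r over unit means were taken. For NLRP2 they were TRIM61 (0.99), TRIML2 (0.95) and TRIM60 (0.92). NLRP7 was most like DPPA3 (0.98), FABP5 (0.96) and DNMT3L (0.96), and OOEP most like FOXR1 (0.98), DPPA3 (0.96) and TRIM75 (0.92). NLRP9 was most like CNGB3 (0.96), FAM240A (0.94) and KLF17 (0.94), and KHDC3L most like DPPA5 (0.96), FGF4 (0.89) and ZNF208 (0.88). For KHDC1L they were LOC102145334 (0.99), LOC102145562 (0.98) and CD53 (0.98). These units share cells of the same days and title codes, and the values are descriptions.

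Among the 6 genes, unit means were closest for NLRP7 and KHDC1L (r = 0.92), NLRP7 and OOEP (0.91) and NLRP2 and NLRP7 (0.89), and farthest apart for KHDC3L and KHDC1L (0.21). Over single cells of a unit, NLRP2 and NLRP7 had r = 0.66 in 24 epiblast-like cells of E08 and 0.60 in 25 of E14, but -0.01 in 24 of E13. KHDC3L and OOEP had r = 0.61, 0.46 and 0.09 in the same cells. In 37 hypoblast-like cells of E08 the values were 0.43 for NLRP2 with NLRP7 and -0.10 for KHDC3L with OOEP.

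In mouse cells, Nlrp2 had no read in any of 71 cells, which allows a share of cells with a read of up to 4.23%. Ooep had medians of 6.06 RPM in 12 EpiLCs, 27.3 RPM in 25 cells of E5.5, 0.492 RPM in 24 cells of E6.5 and 53.7 RPM in 10 ESCs in 2i and LIF. Dppa5a had medians of 809, 1636, 88.7 and 3665 RPM in that order. Nlrp9a and Nlrp9c had no read, and Nlrp9b had at most 2.84 RPM. Mouse and monkey tables were normalized separately, so only values within a species are set side by side.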

How the data were processed

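SC3-seq of single cells was analysed in 421 monkey and 71 mouse cells. The deposited values are RPM, which the authors computed for every gene in each cell on macFas5 for monkey and mm10 for mouse, per the file headers, and cutadapt 1.3, TopHat 1.4.1 and Cufflinks 2.2.0 are named in the submitters' processing notes. In each cell at least 99.7% of the values worth under 500 reads were whole multiples of 1 read (tolerance 0.1 reads), from which the depth of the cell was estimated. Higher values were not checked in this way, so depths are estimates, and no count test was run. Depth was used only for thinning to 300000 reads, which left out 1 cell of E13 and 1 of E17. Another 37 mouse columns matched no sample and were not used.

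The 390 embryo cells were clustered with scanpy 1.11.5 on 2000 variable genes without the 6 genes or any listed gene (12 principal components, 10 neighbours, Leiden resolution 1). A cluster was named where over 50% of the detected markers of a class, at least 3, were elevated by at least 1 (log2) with a mean of at least 3. That rule was set after clusters had been seen, and no doublet caller was run. Means of log2(RPM + 1) over the cells of a class and day (at least 5 cells) or an ESC culture were compared with limma 3.58.1 in R 4.3.3 (eBayes with an intensity trend, two-sided, Benjamini-Hochberg adjustment over all tested genes, threshold 0.05). A gene was tested where 3 or more units of the comparison had a mean of 2 or higher. The filter passed 5 of the 6 genes in each of the 3 comparisons with tests, and NLRP9 did not pass. Between late and early days of the other classes NLRP7 and OOEP passed through the early days alone and are given without a test. The ± values of differences are SE, and those of group means are SD over days or cultures. The fit was tested on simulated data.

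The 6 genes and all lists were chosen with earlier results of these data known. Of 102 other listed genes 95 had a row. All 6 genes were described, and of each list at most 4 called genes were named, those with the largest differences; further called genes of the imprinting list were named after their values were seen. The limit given for a share of 0, 3 divided by the number of cells, covers counting error alone. The 3 ESC cultures come from 2 lines. Alternatives were another pseudocount, no filter, quantile normalization, log2 of the mean RPM, larger units, another clustering, no intensity trend, no day block, 1 title code, and each day or culture left out.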

Additional observations from a re-analysis of the deposited data

Results flagged for a closer look

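Of 30 groups of 4 to 10 days or cells, 7 held a value that stood apart from the rest. In 6 of them every other value was 0, so that a single value above 0 stands apart by construction and the chance rate of about 1 in 20 does not apply to them. NLRP2 in trophectoderm-like cells averaged 10.97 at E08, below 11.43 to 11.50 on E06, E07 and E09 (log2(RPM + 1)). NLRP9 averaged 0.051 in epiblast-like cells of E16 and 0 on the other late days. In the ESC cultures the flags were single cells with few reads where all others of the culture had none. In CMK9 on feeders, 1 of 8 cells had 0.83 of NLRP2, 1 had 0.47 of NLRP7 and 1 had 0.58 of KHDC1L (log2(RPM + 1)). In CMK6 without feeders, 1 of 9 cells had 0.49 of NLRP9 and 1 had 0.55 of OOEP.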

How the results depend on the processing

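The calls of NLRP2 and KHDC1L between late and early days of the other classes held under all 17 alternatives, with differences of -6.59 to -4.22 and -7.52 to -3.15. For NLRP7 and OOEP, given without a test, the differences ranged from -10.69 to -7.94 and from -6.41 to -3.60. NLRP2 kept its call between trophectoderm-like and hypoblast-like cells under 10 of 12 alternatives and lost it with no filter (adjusted p = 0.143) and no intensity trend (adjusted p = 0.0706). In cells coded MS03 the NLRP2 difference was 0.80 (adjusted p = 0.0108) and that of NLRP7 0.60 (adjusted p = 0.0750; all by limma). KHDC3L changed sign between those classes to 0.20 with units of at least 10 cells and without E09 (leave-one-out range -0.66 to 0.20), and its trend to 0.043 under the same settings (leave-one-out range -0.80 to 0.043). The NLRP2 trend ranged from -0.23 to 0.0085 with a day left out. KHDC3L in the other classes ranged from -0.38 to 1.69 with a day left out and was -2.24 without gastrulating-like cells. These causes were not tested.

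The trophectoderm-like against hypoblast-like comparison called 2070 genes, 115 with no filter, 902 with units of at least 10 cells, 1189 in code MS03 only and 1347 (without E09) to 2335 with a day left out. The trophectoderm-like trend called 42 genes, 1 with a pseudocount of 10 RPM, 1 with quantile normalization, 799 with units of at least 10 cells, and 0 with no filter, log2 of the mean RPM or no intensity trend (2964, 1298 and 1274 genes at an unadjusted p under 0.05 by limma); leaving out a day gave 1 (E06), 8 (E07), 383 (E08) and 829 (E09). Late against early epiblast-like days called 3715 genes and 788 with units of at least 10 cells. ESCs against late epiblast-like days called 855 genes, 113 with no filter, 437 with quantile normalization (235 higher, 202 lower), 431 with log2 of the mean RPM (290 higher, 141 lower), 12 with units of at least 10 cells, and 254 (without CMK9 on feeders) to 770 with a day or culture left out, with 258 without CMK6 on feeders and 271 without E14. The split of higher and lower calls moved with the scaling. For the other classes it was 1092 and 2400, with 1530 and 1601 after quantile normalization and 1346 and 1261 with log2 of the mean RPM. For epiblast-like days it was 1321 and 2394, with 1823 and 1656, and 1570 and 1625. The median of all tested genes was shifted by -0.32 in the other classes, -0.26 in epiblast-like cells and 0.28 in ESCs. Without the day block the trophectoderm-like against hypoblast-like comparison called 1568 genes, NLRP2 kept its call (adjusted p = 0.0433) and NLRP7 lost it (adjusted p = 0.2204; limma). Beyond that pairing by day, no paired analysis was possible because the labels number single cells and name no embryo or culture that groups share.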

Other observations

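The 13 unnamed cells of E14, led by SPP1, T and HAS2, had KHDC3L between 108 and 4366 RPM (median 768), NLRP2 between 7.75 and 867 RPM (median 350) and NLRP7 of at most 47.4 RPM. Units of fewer than 5 cells entered no comparison. Of these, 2 trophectoderm-like cells of E16 had 169 and 418 RPM of NLRP2, and 2 extraembryonic mesenchyme-like cells of E16 had 103 and 145 RPM.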
